A study of Mus musculus with 12 samples.

Results

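The comparison was between mutant and wild-type fibrillin-1 in the ascending aorta of mice labelled as knockouts of Tgfbr2, a receptor of transforming growth factor β (TGF-β), in smooth muscle. It used 6 of the 12 arrays of the series, chosen by their titles: 3 from Fbn1C1039G/+.Myh11-CreERT2.Tgfbr2f/f knockouts, called mutant knockouts here, and 3 from Myh11-CreERT2.Tgfbr2f/f knockouts, called wild-type knockouts. All 4 groups of the series carried the Myh11-CreERT2 transgene, a tamoxifen-inducible Cre recombinase driven in smooth muscle, and floxed Tgfbr2 alleles. Both knockout groups received tamoxifen, 1 mg by intraperitoneal injection on 5 days from 4 weeks of age, and the ascending aorta was taken at 6 weeks, between the coronary arteries and the first branch of the arch. The other 2 groups, mutant and wild-type controls with 3 arrays each, received corn oil in place of tamoxifen, so that their receptor was left intact. They entered here as the same genotype comparison without tamoxifen and without the deletion. Wherever knockouts are set against controls, also in the difference of the genotype effects, tamoxifen and the deletion cannot be told apart. The mutants were heterozygous for Fbn1C1039G, an amino acid change in fibrillin-1 on which a mouse model of Marfan syndrome is built. The Cre line acts in smooth muscle, so that the endothelial, adventitial and blood cells of the aorta kept their Tgfbr2. The labels do not say that the arrays of a group came from separate animals, and p-values then measure the spread between these samples, which may be technical.

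Fibrillin-1 forms the microfibrils on which elastic fibres are laid down, and these microfibrils also hold latent TGF-β complexes in the matrix. TGF-β is released from the latent complex, binds the type II receptor encoded by Tgfbr2, which recruits and phosphorylates the type I receptor, and the signal passes through SMAD transcription factors to genes of the matrix and of smooth muscle. In Marfan syndrome the aortic root and ascending aorta dilate, and smooth muscle TGF-β signalling has been studied both as a driver of that disease and as a protection against it.

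Total RNA was measured on a 1-colour whole-transcript array. Levels are log2 of the deposited linear intensity, n is 3 arrays per group throughout, and a difference is the mutant mean minus the wild-type mean on the log2 scale, with the standard error of the fit. A gene is said to have risen or fallen where limma's test gave a Benjamini-Hochberg adjusted p below 0.05 over all 14944 genes tested, and every adjusted p here is of that kind. The median intensity of the 35556 probe sets lay between 301 and 334 over the 12 arrays. Arrays of the same group, taken over all 4 groups, correlated at r = 0.9949 to 0.9967. Arrays of different knockout groups correlated at 0.9938 to 0.9956. The first principal component of the 6 knockout arrays, with 47.4% of the variance, separated the genotypes, from -11.5 to -8.16 in the wild-type and from 9.05 to 11.5 in the mutant knockouts. All 10 genes that define aortic tissue, among them Acta2 and Myh11 of smooth muscle, Eln, Pecam1 and Pdgfra, were detected, the lowest being Cdh5 of endothelium at percentile 82.8 of all genes. Fbn1 has no probe set assigned to it alone and its level was not analysed here.

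The targeted gene was examined first. The log2 level of Tgfbr2 was 11.88, 11.95 and 11.79 in the wild-type knockouts and 12.05, 12.07 and 11.98 in the mutant knockouts, against 11.96, 11.96 and 11.94 in the wild-type controls and 12.04, 11.98 and 11.95 in the mutant controls. The levels of the knockout arrays overlapped those of the controls of the same genotype. The aorta also holds cells that the Cre does not reach, and where the probes of the array lie relative to the floxed part of the gene is not given in the sources used here, so the level does not check the deletion, and knockout is the word of the labels. Between the genotypes, Tgfbr2 was 0.16 ± 0.05 in the knockouts (adjusted p = 0.0943), and an exact two-sided permutation test over the 6 arrays gave p = 0.1, the smallest that 20 assignments allow. When limma weighted the arrays by their quality the difference was 0.18 with an adjusted p of 0.0223.

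Of the 14944 genes, 890 differed between mutant and wild-type knockouts, which is 5.96% of those tested: 418 rose in the mutants (2.8%) and 472 fell (3.16%). The differences were mostly small, with a median size of 0.34 on the log2 scale, or 1.27-fold, over the 890 genes, and 7 genes rose and 17 fell by at least 2-fold. The levels of the 3 mutant arrays did not overlap those of the 3 wild-type arrays for 888 of the 890, as for 26.3% of all genes tested. The split by direction moved with the scaling: with each array centred on its median, 271 rose and 649 fell, and with quantile normalization 422 rose and 658 fell. Leaving out mutant knockout 1, wild-type knockout 1 or wild-type knockout 3 left 382, 457 and 498 genes. The mean log2 deviation of the macrophage markers, described below, was 0.51, 0.41 and 0.62 in the wild-type knockouts and 0.14, 0.14 and 0.16 in the mutant knockouts, without overlap. With that score as a covariate, a fit chosen after the data had been seen, 145 genes passed, of which 94 were among the 890. Because the score separates the genotypes of the knockouts, this fit cannot tell the score apart from the genotype. The macrophage markers make up the score, so each of them is adjusted partly for itself. Whether cell content accounts for a call lost in this fit, here or below, was not tested.

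Among the genes that rose most were proteins of muscle excitability and contraction. P2rx1, the ATP-gated cation channel of smooth muscle, stood at 10.81, 10.67 and 10.87 in the wild-type knockouts and 12.23, 12.03 and 11.82 in the mutant knockouts, a difference of 1.25 ± 0.13 (adjusted p = 0.000194). Kcnk3, a background potassium channel, stood at 10.32, 10.30 and 10.29 in the wild-type knockouts and 11.60, 11.64 and 11.13 in the mutant knockouts, a difference of 1.15 ± 0.11 (adjusted p = 0.000123). Tcap, a protein of the sarcomeric Z-disc, stood at 9.32, 9.34 and 8.95 in the wild-type knockouts and 10.83, 10.90 and 10.08 in the mutant knockouts, a difference of 1.40 ± 0.25 (adjusted p = 0.00596). Every mutant array lay above every wild-type array for these 3 genes, and the third mutant array was the lowest of its group for each. Timp4, an inhibitor of matrix metalloproteinases, stood at 10.53, 10.34 and 10.42 in the wild-type knockouts and 11.68, 11.64 and 11.84 in the mutant knockouts, a 2.45-fold difference (adjusted p = 0.000569). Rasd2, a small GTPase, stood at 9.35, 8.94 and 9.0 in the wild-type knockouts and 10.25, 10.05 and 10.11 in the mutant knockouts (adjusted p = 0.000147). Rbm24, an RNA-binding regulator of splicing in muscle, rose by 0.79, Cpz, a carboxypeptidase of the matrix, by 0.97, Olfml2a, a secreted olfactomedin-domain protein, by 0.94, Gpcpd1, a phosphodiesterase of glycerophosphocholine, by 0.79, Tmem215 by 0.87 and Elobl by 0.89. Sik1, a salt-inducible kinase, was at 0.80 (adjusted p = 0.0395), a call that was lost without wild-type knockout 1, 2 or 3, mutant control 1 or 2 or mutant knockout 1, with adjusted p up to 0.152. The remaining 3 of the 15 largest increases, Ciart, Nr1d1 and Dbp, belong to the clock genes.

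The 15 largest decreases held immune, matrix and receptor genes. Meox1, a homeobox transcription factor of the somites, had the smallest p of all genes: it stood at 9.88, 9.83 and 9.79 in the wild-type knockouts and 8.15, 8.23 and 8.19 in the mutant knockouts, a 3.13-fold fall with the 3 arrays of each group close together. Its difference was -1.65 ± 0.06 (adjusted p = 4.83e-08). Glp1r, the receptor of glucagon-like peptide 1, stood at 8.997, 9.18 and 9.48 in the wild-type knockouts and 7.44, 7.46 and 7.60 in the mutant knockouts, a difference of -1.72 ± 0.12 (adjusted p = 1.15e-05). Ccl8, a chemokine that attracts monocytes, stood at 8.58, 8.44 and 9.16 in the wild-type knockouts and 6.86, 7.07 and 7.19 in the mutant knockouts, a difference of -1.69 ± 0.15 (adjusted p = 0.000117). Ifi205, of a family of interferon-inducible genes whose near-identical members may share probes, stood at 9.73, 9.47 and 9.34 in the wild-type knockouts and 7.45, 8.02 and 7.06 in the mutant knockouts, a difference of -2.002 ± 0.26 (adjusted p = 0.000929), the largest of the 15. Col8a1, a short-chain collagen of vessel walls, stood at 12.01, 11.88 and 11.74 in the wild-type knockouts and 10.25, 9.92 and 10.77 in the mutant knockouts, a difference of -1.56 ± 0.20 (adjusted p = 0.00104). Kcnj15, an inwardly rectifying potassium channel, stood at 11.80, 11.83 and 11.92 in the wild-type knockouts and 10.34, 10.56 and 10.81 in the mutant knockouts, a difference of -1.28 ± 0.13 (adjusted p = 0.000194). In each of these genes all mutant arrays lay below all wild-type arrays. The filter on dim genes stood at log2 7.31. All mutant levels of Ccl8 and the lowest of Ifi205 lay below it, and those of Glp1r little above it. Levels near the filter cannot be set against their background, so the size of these 3 falls is uncertain. C4b, complement component 4, differed by -1.03, Trim67, a tripartite motif protein, by -1.02, Ccdc85a by -1.05, Gmnc, a geminin-like regulator of multiciliated cells, by -1.12, Ttc9 by -1.38 and Thbs4, a thrombospondin, by -1.19. Sphkap, an anchoring protein of protein kinase A, was at -1.17 (adjusted p = 0.0428), and its call was lost in 8 of the 12 fits that left out 1 array, with adjusted p up to 0.14. Idi1 and Hsph1 complete the 15 and belong to the sterol and heat shock genes. C4a, nearly identical to C4b, fell by 0.66, and the values of this pair are uncertain because their probes may be shared.

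**Figure D1:**
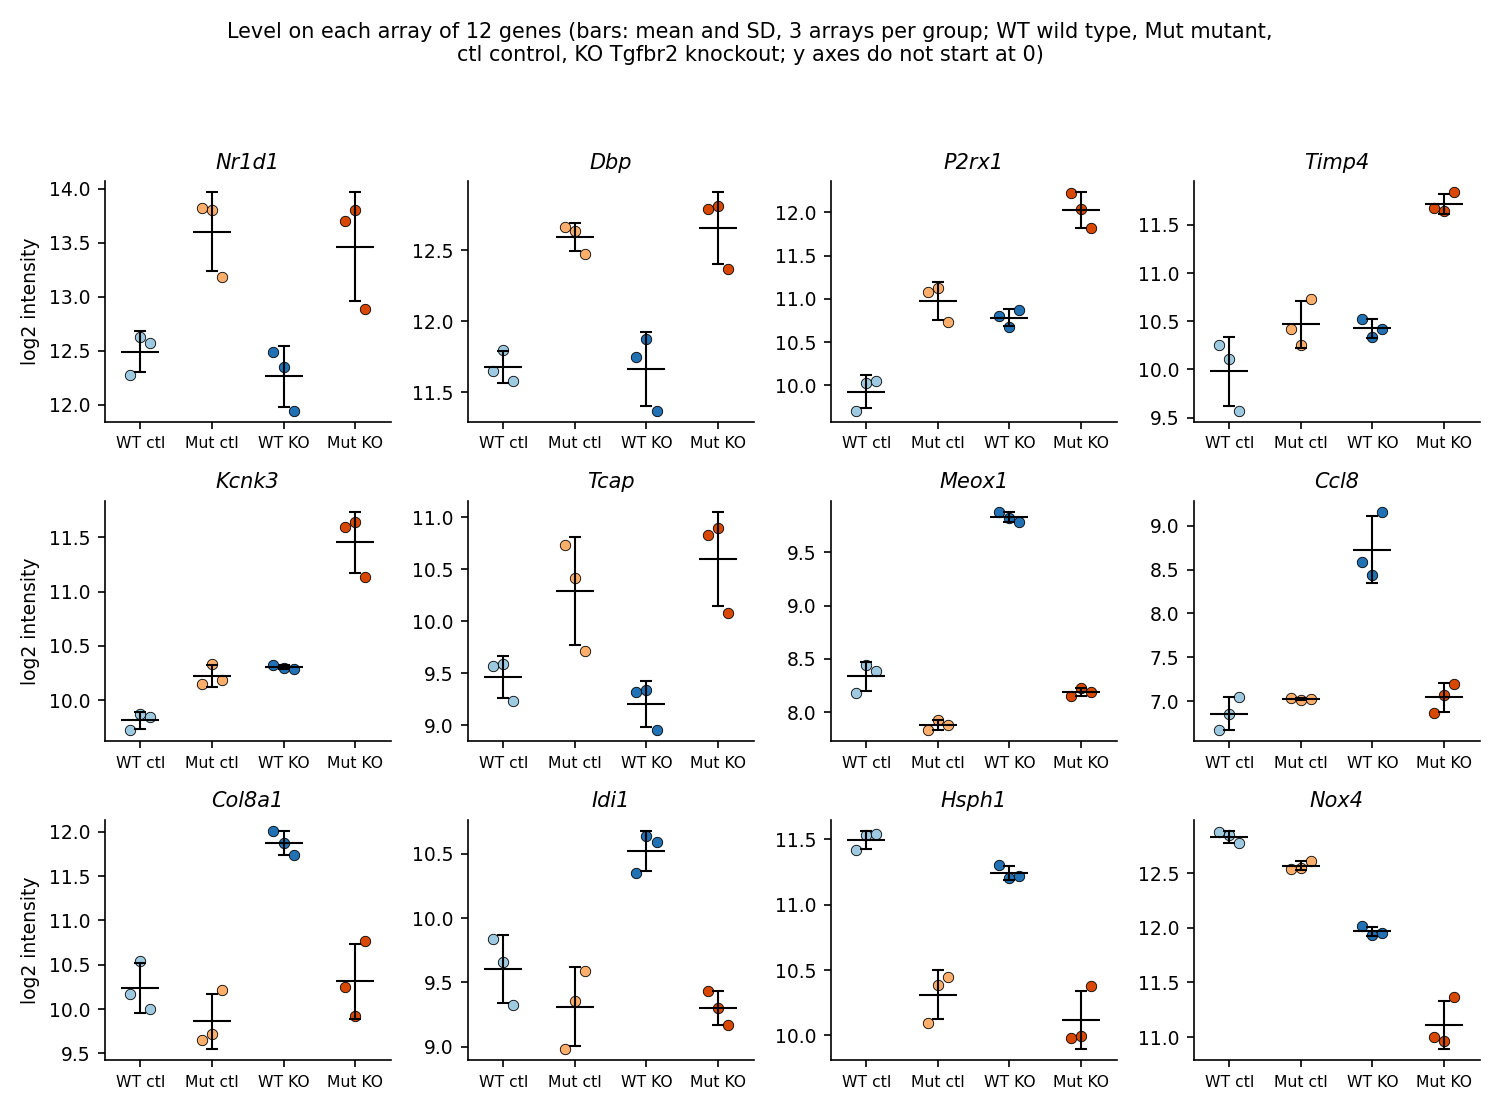
Log2 level of 12 genes on each of the 12 arrays, by group, as points, with the mean and SD of the 3 arrays of each group as bars. Meox1 sits between 8.15 and 8.23 in the mutant knockouts and between 9.79 and 9.88 in the wild-type knockouts, and y axes do not start at 0.

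Clock genes were called most often of the lists examined. The circadian clock is a loop in which the activators CLOCK and BMAL1 (Arntl) drive their own repressors, and a second arm in which REV-ERB receptors (Nr1d1, Nr1d2) repress Arntl. Of 18 tested clock genes, 8 rose and 2 fell in the mutant knockouts, 55.6% against the 5.96% of all genes, and the list's median difference was 0.35 against 0.01 over all genes. None of the 18 passed with the macrophage score as a covariate, and the list's median difference was 0.16. The labels give no time of day for the collection of the tissue.

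Promoters of 3 clock genes are given here, and of 5 stress and sterol genes further on, because each list has a known response element. The sequences were taken from RefSeq on GRCm38.p6 and run 300 bases in the direction of the gene, from 250 before to 50 after its start, and positions count from the start. The E-box CACGTG, bound by CLOCK and BMAL1, was in the promoter of 3 of the 8 clock genes that rose (Bhlhe41, Ciart and Tef), in neither of the 2 that fell and in 2 of 6 that were not called, against 7.15% of all 32851 promoters, searched on both strands. The D-box TTATGTAA, bound by Dbp, Tef and Hlf, was in 1 of the 8 (Per3) against 0.938% of all, and the REV-ERB and ROR element TAGGTCA in 1 of the 2 that fell (Arntl), in none of the 8 that rose and in 1 of the 6 not called (Nfil3), against 2.61%. Capitals mark the E-boxes of Ciart at -116, -58 and -44 (chr3:95882179-95882478, minus strand), the D-boxes of Per3 at -205 and -158 (chr4:151044616-151044915, minus strand) and the ROR element of Arntl at 31 (chr7:113207261-113207560, plus strand, 1 of 2 starts listed). A gene was counted if any of its listed starts had the element, while the percentages are shares of single promoters, so the 2 are not counted alike. A match of letters is a description and not evidence of binding.
Ciart: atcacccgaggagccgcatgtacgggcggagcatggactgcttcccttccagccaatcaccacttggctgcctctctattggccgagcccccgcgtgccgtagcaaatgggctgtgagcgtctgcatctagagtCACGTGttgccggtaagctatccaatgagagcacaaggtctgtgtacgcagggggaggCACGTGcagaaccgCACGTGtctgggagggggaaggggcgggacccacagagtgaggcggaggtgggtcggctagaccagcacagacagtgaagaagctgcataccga
Per3: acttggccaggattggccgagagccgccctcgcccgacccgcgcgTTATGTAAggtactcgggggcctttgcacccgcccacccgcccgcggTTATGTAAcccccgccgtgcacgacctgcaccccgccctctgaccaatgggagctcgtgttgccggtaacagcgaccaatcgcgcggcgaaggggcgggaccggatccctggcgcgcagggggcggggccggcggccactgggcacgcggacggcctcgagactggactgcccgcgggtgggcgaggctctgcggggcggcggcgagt
Arntl: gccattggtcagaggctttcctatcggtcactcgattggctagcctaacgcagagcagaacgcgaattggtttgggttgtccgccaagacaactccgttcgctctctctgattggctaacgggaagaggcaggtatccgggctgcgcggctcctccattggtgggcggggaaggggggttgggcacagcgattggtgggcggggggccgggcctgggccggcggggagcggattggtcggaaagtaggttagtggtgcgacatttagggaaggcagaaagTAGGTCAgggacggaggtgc

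Of the clock repressors, Ciart, which acts against CLOCK and BMAL1, stood at 10.69, 10.54 and 9.66 in the wild-type knockouts and 12.02, 11.94 and 11.20 in the mutant knockouts, a difference of 1.42 ± 0.35 (adjusted p = 0.0334). Nr1d1, which encodes REV-ERBα, stood at 12.49, 12.35 and 11.94 in the wild-type knockouts and 13.70, 13.81 and 12.89 in the mutant knockouts, a difference of 1.20 ± 0.23 (adjusted p = 0.00991). The third array was the lowest of its group in both genotypes for both genes, and the groups did not overlap. Of the clock's output factors, Dbp stood at 11.75, 11.87 and 11.37 in the wild-type knockouts and 12.79, 12.81 and 12.36 in the mutant knockouts, a difference of 0.99 ± 0.13 (adjusted p = 0.00124), Tef rose by 0.38 and Hlf by 0.37. Per3, a period protein, rose by 0.37, Nr1d2, which encodes REV-ERBβ, by 0.33 and Bhlhe41, another E-box repressor, by 0.78. The activators moved the other way: Arntl stood at 7.91, 8.13 and 8.70 in the wild-type knockouts and 7.49, 7.65 and 7.58 in the mutant knockouts, a difference of -0.67 ± 0.15 (adjusted p = 0.0237), and Clock fell by 0.32 (adjusted p = 0.0052). The mutant levels of Arntl lay little above the filter at log2 7.31, so the size of its fall is uncertain. Per1 (0.58, adjusted p = 0.104), Per2 (0.04), Cry1 (-0.30) and Nfil3 (-0.59) did not pass. In the controls 7 clock genes rose and 2 fell, beside 3.17% and 3.33% of all genes, and Nr1d1 rose by 1.11 and Ciart by 1.76. No clock gene's genotype difference was called as different between knockouts and controls by limma's test, 2 having an unadjusted p below 0.05. The call of Ciart was lost without wild-type knockout 2 or 3 or mutant knockout 1 or 2 (adjusted p up to 0.124), that of Nr1d1 without mutant knockout 1 (0.0521) and that of Arntl without mutant knockout 1 or 3 (0.0936). Those of Nr1d2 and Bhlhe41 were lost in 5 and 10 of the 12 such fits, and 4 to 8 of the clock genes rose in those that left out a knockout array.

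Sterol synthesis genes fell together. The mevalonate pathway builds cholesterol from acetyl-CoA, and its genes share the transcription factor SREBP-2. Of 24 tested genes of the pathway and its regulators, 12 fell and none rose, 50% against 3.16% of all genes lower, with a median difference of -0.28. At the start of the pathway, Hmgcs1, which makes hydroxymethylglutaryl-CoA, stood at 10.85, 11.14 and 10.92 in the wild-type knockouts and 10.37, 10.46 and 10.23 in the mutant knockouts, a difference of -0.62 ± 0.10 (adjusted p = 0.00428). Idi1, the isopentenyl diphosphate isomerase, stood at 10.35, 10.64 and 10.59 in the wild-type knockouts and 9.43, 9.30 and 9.17 in the mutant knockouts, a difference of -1.23 ± 0.15 (adjusted p = 0.000722), and Fdps, which joins the isoprene units into farnesyl diphosphate, at 10.90, 11.14 and 11.09 in the wild-type knockouts and 10.16, 10.34 and 10.10 in the mutant knockouts, a difference of -0.85 ± 0.10 (adjusted p = 0.000432). All 3 mutant arrays lay below all 3 wild-type arrays in each of these genes, with the wild-type knockout 1 the lowest of its group. Squalene is turned into cholesterol by Sqle (-0.96), Lss (-0.44), Cyp51 (-1.01), Msmo1 (-0.86), Nsdhl (-0.38), Hsd17b7 (-0.86) and Sc5d (-0.46), all of which fell. Srebf2, the gene of SREBP-2, differed by -0.32, and Insig1, which retains SREBP in the endoplasmic reticulum when sterols are plentiful, by -0.54. Mvd (-0.20), Fdft1 (-0.21), Srebf1 (-0.00) and the cholesterol exporters Abca1 (0.22) and Abcg1 (0.18) did not pass. In the controls 1 of the 24 fell, beside 3.33% of all genes, and the list's median was -0.13. The difference between the genotype effects was called for Msmo1 alone among the 24, at -0.68 (adjusted p = 0.0497). Between 10 and 11 fell with any 1 knockout array left out, and 5 fell with the macrophage score as a covariate, where the list's median difference was -0.41. The calls of Insig1 and Nsdhl were the least stable, with adjusted p up to 0.125 and 0.0817 when an array was left out.

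Heat shock genes fell in both genotype comparisons. Chaperones and their helpers fold proteins, and heat shock factor 1 drives many of them. Of 24 tested, 11 fell in the mutant knockouts and none rose (3.16% of all genes lower), with a median of -0.23, and 14 fell in the mutant controls (3.33% of all genes lower there), with a median of -0.35. Hsph1, a large chaperone that exchanges the nucleotide of HSP70, stood at 11.30, 11.21 and 11.22 in the wild-type knockouts and 9.98, 9.996 and 10.38 in the mutant knockouts, a difference of -1.12 ± 0.11 (adjusted p = 0.000134) beside -1.19 in the controls. Chordc1, a partner of HSP90, stood at 10.96, 10.93 and 10.78 in the wild-type knockouts and 10.36, 10.45 and 10.50 in the mutant knockouts, a difference of -0.45 ± 0.08 (adjusted p = 0.00555). Mutant and wild-type arrays did not overlap for either gene, and mutant knockout 3 lay nearest to the wild type. Hspa4l, a relative of Hsph1, differed by -0.71, Dnaja1, a co-chaperone of HSP70, by -0.42, Stip1, which links HSP70 to HSP90, by -0.38, Hsp90aa1 by -0.37, Ahsa1, an activator of HSP90, by -0.34 and Hspd1, the mitochondrial chaperonin, by -0.34. Hspa1a, the inducible HSP70, was at -0.45 (adjusted p = 0.203) and Cryab, a small heat shock protein of muscle, at 0.01. No heat shock gene's difference between the genotype effects passed limma's test, and 4 had an unadjusted p below 0.05. The calls of Hsp90aa1 and Dnaja1 were lost without mutant knockout 1 (adjusted p up to 0.0504 and 0.0526) and that of Stip1 without that array or wild-type knockout 3 (0.0608). Those of Hspa4, Fkbp4 and Hspa8 were lost in 9, 7 and 4 of the 12 fits with 1 array left out (adjusted p up to 0.138, 0.154 and 0.102). Between 5 and 10 fell with 1 knockout array left out. With the macrophage score as a covariate 1 of the 24 fell, and the list's median difference was -0.18.

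Genes of the endoplasmic reticulum stress response, which expands folding capacity for secreted proteins, fell in 9 of 30 cases, beside 3.16% of all genes, and rose in none, with a median of -0.16. The chaperone Hspa5 (BiP) stood at 12.81, 12.86 and 12.98 in the wild-type knockouts and 12.33, 12.47 and 12.29 in the mutant knockouts, a difference of -0.52 ± 0.07 (adjusted p = 0.00158). Sdf2l1, a partner of BiP, differed by -0.75, Dnajc3, an inhibitor of the stress kinases, by -0.39, Creld2 by -0.40 and the stress-induced secreted protein Manf by -0.33. Nupr1, a stress-induced transcriptional regulator, stood at 12.98, 12.91 and 12.98 in the wild-type knockouts and 12.32, 12.42 and 12.42 in the mutant knockouts, a difference of -0.57 ± 0.06 (adjusted p = 0.000194), and the difference between its genotype effects was -0.62 (adjusted p = 0.00289). In the controls 4 of the 30 fell, beside 3.33% of all genes. Between 5 and 7 fell when 1 knockout array was left out, the calls of Creld2 and Manf among those lost (adjusted p up to 0.0954 and 0.0739), and 1 fell with the macrophage score as a covariate, where the list's median difference was -0.19.

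Elements of these 3 stress and lipid responses were searched in the same promoters, on both strands, again counting genes against shares of single promoters. A sterol regulatory element, TCACNCCAC, was in 1 of 10 sterol genes that fell and had a listed promoter (Hmgcs1) and in none of 9 not called, against 1.24% of all. A heat shock element, GAA, any 2 bases, TTC, any 2 bases and GAA, was in 3 of 9 of the heat shock genes that fell (Chordc1, Hspd1 and Hsph1) and in 1 of 11 not called (Hspe1), against 0.603% of all. An ER stress element, CCAAT, any 9 bases and CCACG, was in 3 of 7 of the genes that fell (Creld2, Dnajc3 and Hspa5) and in 5 of 20 not called, against 0.119% of all. Capitals mark the element at -137 in Hmgcs1 (chr13:119690101-119690400, plus strand), at 37 in Hsph1 (chr5:149636287-149636586, minus strand, 1 of 2 starts listed), at -4, 2 and 7, overlapping, in Chordc1 (chr9:18292017-18292316, plus strand), at -65 in Hspa5 (chr2:34771840-34772139, plus strand) and at -126 in Creld2 (chr15:88819396-88819695, plus strand).
Hmgcs1: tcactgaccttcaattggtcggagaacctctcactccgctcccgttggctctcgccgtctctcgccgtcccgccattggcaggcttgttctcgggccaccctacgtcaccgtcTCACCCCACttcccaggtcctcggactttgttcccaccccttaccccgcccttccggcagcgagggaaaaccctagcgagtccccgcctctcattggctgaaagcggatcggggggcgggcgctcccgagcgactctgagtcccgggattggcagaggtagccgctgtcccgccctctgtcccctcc
Hsph1: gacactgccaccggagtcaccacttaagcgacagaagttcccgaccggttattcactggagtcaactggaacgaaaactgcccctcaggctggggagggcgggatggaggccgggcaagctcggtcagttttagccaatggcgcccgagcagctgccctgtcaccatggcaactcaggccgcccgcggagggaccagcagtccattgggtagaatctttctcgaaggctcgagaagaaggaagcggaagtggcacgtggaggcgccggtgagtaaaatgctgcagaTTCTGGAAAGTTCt
Chordc1: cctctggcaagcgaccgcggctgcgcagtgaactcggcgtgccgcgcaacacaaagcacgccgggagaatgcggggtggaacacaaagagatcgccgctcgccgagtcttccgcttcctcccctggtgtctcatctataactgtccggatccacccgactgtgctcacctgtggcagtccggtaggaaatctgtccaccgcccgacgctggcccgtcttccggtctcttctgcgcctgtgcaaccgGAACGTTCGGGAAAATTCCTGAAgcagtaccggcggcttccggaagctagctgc
Hspa5: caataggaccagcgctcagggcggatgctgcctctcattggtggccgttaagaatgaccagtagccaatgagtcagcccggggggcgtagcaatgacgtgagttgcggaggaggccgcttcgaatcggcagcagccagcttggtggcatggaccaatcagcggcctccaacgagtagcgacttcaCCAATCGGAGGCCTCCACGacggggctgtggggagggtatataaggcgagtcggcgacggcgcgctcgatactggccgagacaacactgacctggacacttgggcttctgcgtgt
Creld2: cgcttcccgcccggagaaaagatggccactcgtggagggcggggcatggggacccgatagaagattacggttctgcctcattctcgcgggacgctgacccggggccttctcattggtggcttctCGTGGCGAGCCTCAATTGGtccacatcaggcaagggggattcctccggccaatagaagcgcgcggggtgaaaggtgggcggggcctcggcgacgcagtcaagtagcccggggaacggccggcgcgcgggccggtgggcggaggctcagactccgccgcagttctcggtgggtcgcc

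**Figure D2:**
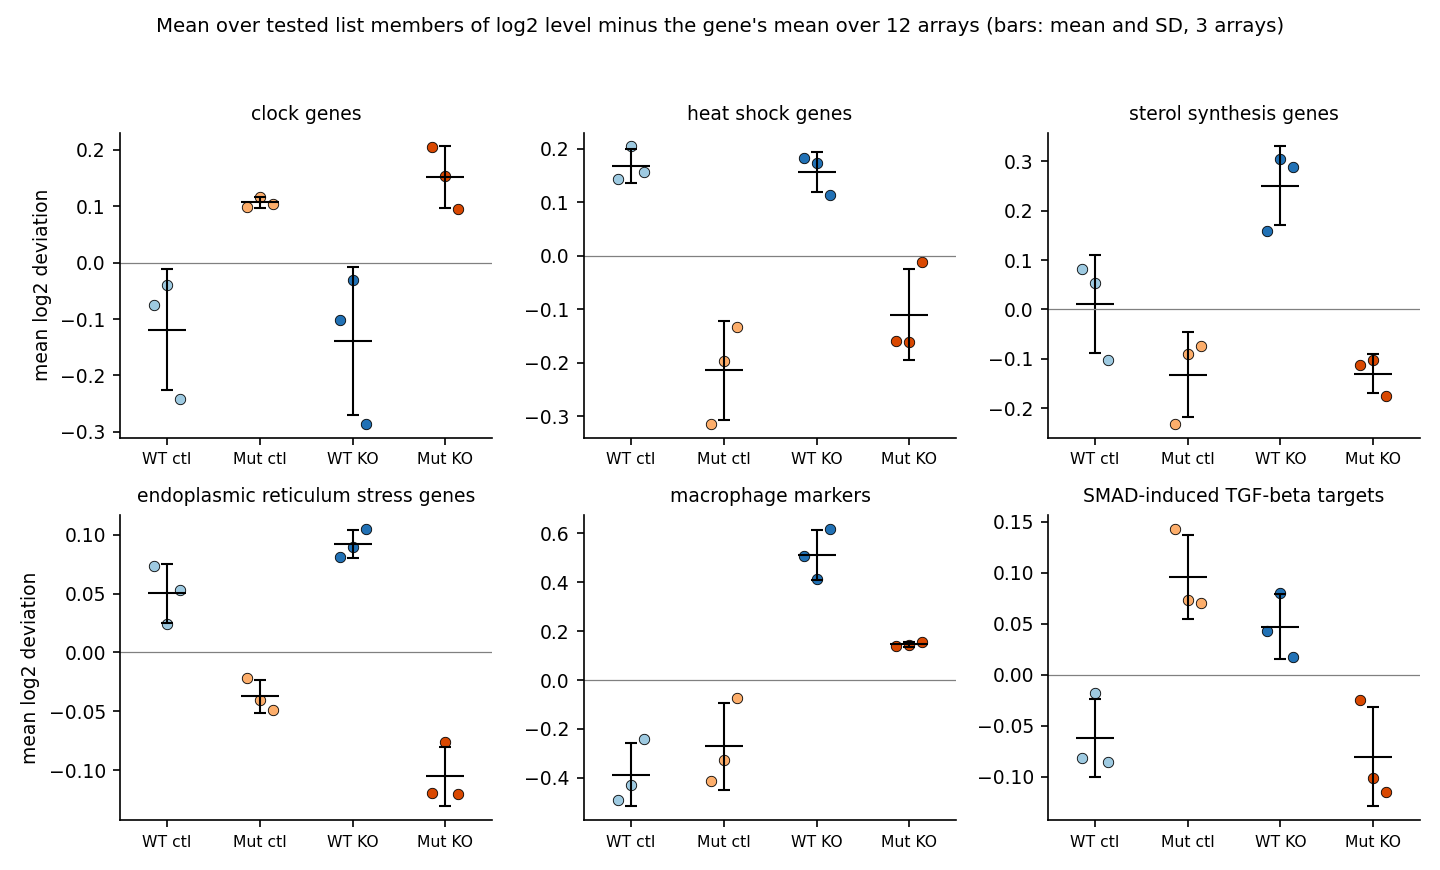
Mean over the tested members of 6 gene lists of each gene's log2 level minus its mean over the 12 arrays, 1 point per array by group, with the mean and SD of the 3 arrays as bars. The macrophage markers lie between 0.41 and 0.62 in the wild-type knockouts and between 0.14 and 0.16 in the mutant knockouts, and below 0 on all 6 control arrays.

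Macrophage markers were lower in the mutant knockouts. Of 36 on the array 33 were tested, the other 3 lying below the filter on dim probe sets. Of the 33, 12 fell, beside 3.16% of all genes, and none rose, with a median of -0.40, while in the controls 3 rose, beside 3.17% of all genes, none fell and the median was 0.14. The difference between the genotype effects was called for 10 of the 33, all lower in the knockouts (1.08% of all genes). Fcgr2b, the inhibitory Fc receptor, stood at 10.43, 10.49 and 10.57 in the wild-type knockouts and 9.73, 9.80 and 9.78 in the mutant knockouts, a difference of -0.73 ± 0.06 (adjusted p = 0.000113), with all mutant arrays below all wild-type arrays. Adgre1, a defining surface marker of mouse macrophages, was -0.52 in the knockouts and 0.34 in the controls, and the difference of -0.86 between them passed (adjusted p = 0.00415). Csf1r, the receptor macrophages need to survive, stood at 11.20, 11.05 and 11.25 in the wild-type knockouts and 10.73, 10.76 and 10.81 in the mutant knockouts, a difference of -0.40 ± 0.08 (adjusted p = 0.0163). Also lower were Fcrls (-0.79), Itgam, which encodes CD11b (-0.47), Trem2 (-0.42), Fcgr3 (-0.46), Ptprc, the pan-leukocyte CD45 (-0.49), lysozyme Lyz2 (-0.48), C1qa (-0.40) and the scavenger receptor Cd163 (-0.57). The summed intensity of the 33 markers ran from 48954 to 55401 in the wild-type knockouts, 39503 to 40712 in the mutant knockouts, 25490 to 30839 in the wild-type controls and 25460 to 34579 in the mutant controls. Both knockout groups thus lay above both control groups, and the mutant below the wild-type knockouts. In bulk tissue, fewer cells of a type and less RNA per cell cannot be told apart. Between 6 and 13 of the markers fell with 1 knockout array left out. The calls of Csf1r (0.0705), Lyz2 (0.0883), C1qa (0.12), Cd163 (0.164), Ptprc (0.0576) and Laptm5 (0.1) were lost in 1 or more of the fits with any 1 array left out, with the highest adjusted p in brackets.

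Cytokine and complement genes fell more often than the 3.16% of all genes. Of 26 cytokines and chemokines, 4 fell and 1 rose: beside Ccl8, Ccl2, another monocyte chemokine, was -0.41 (adjusted p = 0.0124), Il33, an alarmin of stromal cells, -0.49 and Ccl9 -0.49, while Cxcl12 was higher by 0.29. In the controls Ccl2 was 0.39, and the difference of its genotype effects was -0.80 (adjusted p = 0.00573). That of Ccl8 was -1.85 (adjusted p = 0.00216), from 0.16 in the controls. Of 20 complement genes, 5 fell and none rose, among them Cfb, factor B of the alternative pathway (-0.65, adjusted p = 0.00046), and Cd55, an inhibitor of complement on cell surfaces (-0.52). Of 31 genes of MHC class II and the interferon response, H2-Eb1 (-0.56) and Cd74 (-0.67) fell, a share of 6.45% beside the 5.96% of all genes. Ifi205, among the largest decreases above, is not in that list. Of 30 lymphocyte and granulocyte markers on the array, 18 lay below the filter on dim probe sets, so the list says little about these cells. None of the 12 tested passed limma's test, and 1 had an unadjusted p below 0.05, beside 20.3% of all genes. The summed macrophage intensities above were lower in the mutant knockouts too, and whether cell content accounts for these falls was not tested. With the macrophage score as a covariate, which cannot be told apart from genotype among the knockouts, 1 cytokine or chemokine, 1 complement gene and no MHC class II or interferon gene fell. In fits with 1 array left out, the calls of Ccl2 (0.058), Il33 (0.136), Ccl9 (0.154), Cxcl12 (0.119), Cd55 (0.0624), H2-Eb1 (0.0984) and Cd74 (0.134) were lost in at least 1, the highest adjusted p standing in brackets.

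Other cell types showed fewer differences. None of 33 endothelial markers passed limma's test, with a median of -0.07 and 3 at an unadjusted p below 0.05, beside 20.3% of all genes. Their summed intensity ran from 57535 to 68670 in the wild-type and from 54294 to 60624 in the mutant knockouts. Of 30 fibroblast and adventitial markers, 4 fell, 13.3% beside the 3.16% of all genes lower: Ogn (-0.33), Wif1, a Wnt inhibitor (-0.87), Lum (-0.45) and Fap (-0.45). The summed intensity of the 30 markers ran from 153641 to 162786 in the wild-type and from 140238 to 147050 in the mutant knockouts. Of 31 adipocyte markers, 3 rose and 1 fell, 12.9% beside the 5.96% of all genes. Beside Kcnk3, these were Slc2a4, the insulin-responsive glucose transporter, at 10.46, 10.45 and 10.52 in the wild-type knockouts and 11.14, 11.13 and 11.20 in the mutant knockouts, a difference of 0.68 ± 0.07 (adjusted p = 0.000234), Ppargc1a, a coactivator of mitochondrial genes (0.70), and Dio2, which activates thyroid hormone (-0.65). Smooth muscle expresses several of them too. The adipocyte score differed among arrays of a group, at -0.10, -0.07 and 0.24 in the wild-type and 0.43, 0.01 and 0.27 in the mutant knockouts, which overlap. Under the macrophage covariate 8 adipocyte markers rose, and the list's median difference was 0.77, against 0.17 without it. Of 35 cardiac and striated muscle markers Myh7 rose by 0.34 and Ankrd1, a stretch-responsive protein, fell by 0.39, 5.71% of the list beside the 5.96% of all genes. Tcap, among the largest increases above, is not in that list. Of 21 nerve and Schwann cell markers S100b (-0.40), Ncam1 (-0.29) and Stmn2 (-0.54) fell, 14.3% beside the 3.16% of all genes lower. None of 5 erythroid genes passed limma's test, or had an unadjusted p below 0.05, a count of 0. The calls of Fap (0.097), Dio2 (0.102), Ankrd1 (0.136), S100b (0.0599), Ncam1 (0.0783) and Stmn2 (0.0986) did not hold in every fit with 1 array left out, where adjusted p reached the values in brackets.

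**Figure D3:**
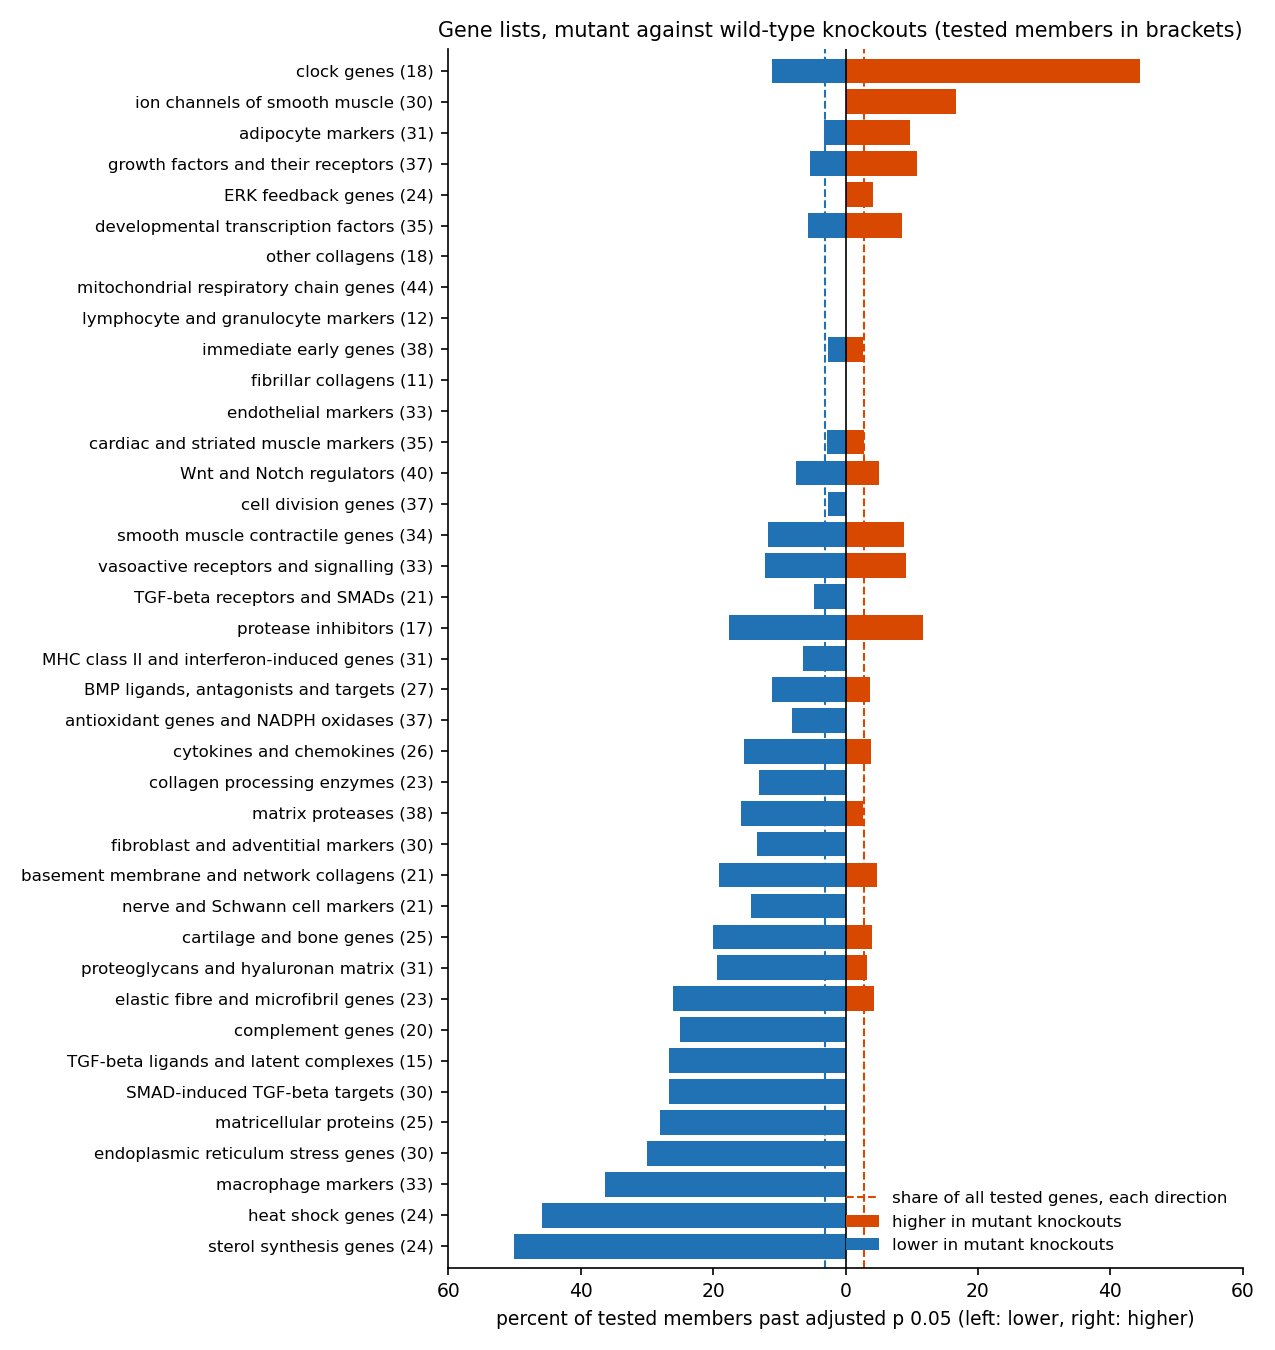
Percent of the tested members of 39 gene lists that rose (right) or fell (left) in mutant against wild-type knockouts at adjusted p below 0.05, with dashed lines at the shares over all genes, 2.8% and 3.16%. The clock genes reach furthest to the right and the sterol and heat shock genes furthest to the left.

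The TGF-β pathway was read from ligands to targets. Of 15 ligand and latent complex genes, 4 fell, beside 3.16% of all genes, and none rose, with a median of -0.08. Tgfb2, one of the ligands, stood at 12.41, 12.56 and 12.61 in the wild-type knockouts and 12.07, 12.10 and 11.81 in the mutant knockouts, a difference of -0.53 ± 0.11 (adjusted p = 0.0109). Ltbp2, a relative of the latent TGF-β binding proteins that associates with microfibrils, stood at 12.14, 12.06 and 11.83 in the wild-type knockouts and 11.25, 11.19 and 11.36 in the mutant knockouts, a difference of -0.74 ± 0.11 (adjusted p = 0.00231), with all mutant arrays below all wild-type arrays. In the controls it was 0.07, and the difference of -0.81 between the effects passed (adjusted p = 0.027). Ltbp3, which binds the latent complex, differed by -0.22 and Fstl3, an activin antagonist, by -0.30. Tgfb1 was -0.17 (adjusted p = 0.177) and Tgfb3 -0.16 (adjusted p = 0.123). Of 21 receptors, SMADs and regulators only Pmepa1, a feedback inhibitor induced by the pathway, passed, at 13.33, 13.37 and 13.41 in the wild-type knockouts and 13.12, 13.12 and 13.02 in the mutant knockouts, a difference of -0.28 ± 0.05 (adjusted p = 0.00492). Tgfbr1 was -0.08, Smad2 -0.04, Smad3 0.10, Smad7 0.09 and Smad4 0.06, none of which passed. The calls of Ltbp3 (0.0989) and Fstl3 (0.0932) were lost with 1 array left out, at the adjusted p in brackets or below.

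Of 30 genes known to be induced through SMADs, 8 fell and none rose, 26.7% against 3.16% of all genes, with a median of -0.11. Nox4, an NADPH oxidase, stood at 12.02, 11.93 and 11.96 in the wild-type knockouts and 10.999, 10.96 and 11.36 in the mutant knockouts, a difference of -0.86 ± 0.09 (adjusted p = 0.000194), with no overlap. It was -0.27 in the controls, at 12.88, 12.85 and 12.78 in the wild-type controls and 12.54, 12.55 and 12.62 in the mutant controls, so that its level was below the controls in both knockout groups and lowest in the mutant knockouts, and the difference of the effects was -0.59 (adjusted p = 0.0348). Versican, Vcan, a large proteoglycan, stood at 11.40, 11.29 and 11.39 in the wild-type knockouts and 10.74, 10.71 and 10.66 in the mutant knockouts, a difference of -0.65 ± 0.08 (adjusted p = 0.000722) and of -0.67 in the controls. Itga11, a collagen receptor, differed by -0.63, Ccn2, connective tissue growth factor, by -0.36, the integrin Itgb5 by -0.18 and Timp3, an inhibitor of metalloproteinases, by -0.16. The collagens Col1a1 (0.11), Col1a2 (0.05) and Col3a1 (-0.09), Eln (-0.19), fibronectin Fn1 (-0.13) and periostin Postn (0.04) did not pass. Tnc had the largest positive difference of the list in the knockouts, 0.46, and did not pass either. In the controls 10 of the 30 rose and 3 fell (3.17% and 3.33% of all genes). Col1a1, at 0.68, and Tnc, with a larger difference than Col1a1, were among those that rose. The difference between the effects was called for 6 of the 30, Tnc among them, all lower in the knockouts, beside 1.08% of all genes. With the macrophage score as a covariate 3 of the 30 fell, and the list's median difference was -0.14. The calls of Ccn2 (0.0933), Itgb5 (0.127) and Timp3 (0.152) were lost with 1 array left out, at up to the adjusted p in brackets.

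Among BMP genes, the sister pathway, 3 of 27 fell and 1 rose, 14.8% beside the 5.96% of all genes. Bmpr1b, a type I receptor, was -0.87 (adjusted p = 0.000117) beside -0.81 in the controls, and the ligands Gdf6 and Bmp3 were -0.72 and -0.53. Id4, a helix-loop-helix inhibitor, stood at 11.41, 11.36 and 11.22 in the wild-type knockouts and 12.16, 11.98 and 11.96 in the mutant knockouts, a difference of 0.70 ± 0.08 (adjusted p = 0.000252). Its difference in the controls was 0.09, and the effects differed by 0.61 (adjusted p = 0.0153). The call of Bmp3 was lost in 7 of the 12 fits with 1 array left out (adjusted p up to 0.13).

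In the extracellular matrix, fibrillar collagens did not differ detectably between the knockouts: none of 11 passed limma's test and 1 had an unadjusted p below 0.05. Their differences ran from -0.19 for Col5a2 to 0.11 for Col1a1, while 5 of the 11 rose in the mutant controls, beside 3.17% of all genes there. The difference between the genotype effects was called for 3 of the 11, all lower in the knockouts, beside 1.08% of all genes. These were Col5a2 (adjusted p = 0.00581), Col3a1 (0.012) and Col1a1 (0.0155). None of the 18 other collagens passed limma's test in the knockouts either, 1 having an unadjusted p below 0.05. Of 21 basement membrane and network genes, 4 fell and 1 rose, 23.8% beside the 5.96% of all genes. Beside Col8a1, Col4a6 (-0.48) and Col4a5 (-0.30), neighbouring chains of collagen IV, and Col15a1 (-0.36) fell, and Lama5, a laminin chain, rose by 0.49. Col4a5 and Col15a1 went the other way in the controls, by 0.46 and 0.43, and the effects differed by -0.76 (adjusted p = 0.000426) and -0.79 (adjusted p = 0.00309). Of 23 elastic fibre and microfibril genes, 6 fell and 1 rose, 30.4% of the list. Fbln2 and Fbln5, fibulins that bind elastin or microfibrils, differed by -0.52 and -0.23, Mfap4, a microfibril-associated protein, by -0.25, Adamtsl2, which binds fibrillin-1, by -0.41 and Loxl3, a lysyl oxidase, by -0.24. Thsd4, which promotes microfibril assembly, rose by 0.25. Eln was -0.19 (adjusted p = 0.3), Lox -0.29 (adjusted p = 0.129) and Fbn2 0.09. In the controls Eln rose by 0.75 (adjusted p = 0.00121), and the difference of its genotype effects passed (adjusted p = 0.00537). The calls of Col15a1 (0.0576), Fbln2 (0.0718), Fbln5 (0.125), Mfap4 (0.104), Adamtsl2 (0.0731), Loxl3 (0.0814) and Thsd4 (0.122) were lost with 1 array left out, at up to the adjusted p in brackets. With the macrophage score as a covariate, 1 elastic fibre gene and 2 network genes fell, with list medians of -0.07 and -0.14, against -0.07 and -0.06 without it.

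Collagen processing genes fell in 3 of 23 cases, 13% beside the 3.16% of all genes lower. Plod2, a lysyl hydroxylase, was -0.43 (adjusted p = 0.000722), P4ha1, a prolyl hydroxylase subunit, -0.43, and Cthrc1, a secreted glycoprotein of injured arteries, stood at 10.94, 10.58 and 10.62 in the wild-type knockouts and 10.08, 9.99 and 9.73 in the mutant knockouts, a difference of -0.78 ± 0.11 (adjusted p = 0.00157). Cthrc1 was 0.27 in the controls, and the effects differed by -1.06 (adjusted p = 0.00581). Of 31 proteoglycan and hyaluronan genes 6 fell and 1 rose, 22.6% beside the 5.96% of all genes. They were the small leucine-rich proteoglycans Omd (-0.74), Lum, Ogn and Aspn (-0.46), the large ones Vcan and Bcan (-0.26), and Acan, aggrecan, the one that rose (0.72, adjusted p = 0.0486). Of 25 matricellular genes 7 fell (28%, beside the 3.16% of all genes lower), among them Thbs4, Ecm2 (-0.59), Smoc1 (-0.44), Smoc2 (-0.33) and Ccn5 (-0.63). The summed macrophage and fibroblast markers, given above, were lower in the mutant knockouts too, and whether cell content accounts for these falls was not tested. With the macrophage score as a covariate, which cannot be told apart from genotype among the knockouts, none of the genes of these 3 lists passed. The list medians were then -0.05, -0.03 and -0.02, against -0.08, -0.13 and -0.08 without it. The call of Acan was lost in 9 of the 12 fits with 1 array left out (adjusted p up to 0.154), and those of Aspn (0.122), Bcan (0.135), Smoc2 (0.071) and Ccn5 (0.0592) in at least 1, at the highest adjusted p in brackets.

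Of 38 matrix proteases, 6 fell and 1 rose, beside 3.16% and 2.8% of all genes. The cathepsins Ctss (-0.69, adjusted p = 0.00122), Ctsc (-0.37) and Ctsz (-0.20), which macrophages also express, the metalloproteinases Mmp2 (-0.37) and Mmp19 (-0.51) and the serine protease Htra1 (-0.27) fell. Mmp2, a gelatinase, stood at 13.29, 13.32 and 13.40 in the wild-type knockouts and 12.90, 13.11 and 12.90 in the mutant knockouts, beside a difference of 0.23 in the controls, and the effects differed by -0.60 (adjusted p = 0.00974). Adamts12 rose by 0.42 in the knockouts and by 1.36 in the controls, a difference of -0.94 (adjusted p = 0.00632). Of 17 protease inhibitors, 2 rose and 3 fell, 29.4% beside the 5.96% of all genes. No gene of either list passed with the macrophage score as a covariate, and the list medians were -0.09 and 0.01, against -0.05 and -0.05 without it. Timp1, the inducible inhibitor of metalloproteinases, stood at 12.04, 12.09 and 11.74 in the wild-type knockouts and 11.15, 10.80 and 10.99 in the mutant knockouts, a difference of -0.97 ± 0.13 (adjusted p = 0.00104), opposite in direction to Timp4. It was 0.29 in the controls, and the effects differed by -1.26 (adjusted p = 0.00514), as did those of Serpina3n, an acute-phase inhibitor of serine proteases (-0.71 in the knockouts, 0.39 in the controls, adjusted p of the difference = 0.0126). The calls of Ctsz (0.12), Htra1 (0.148) and Adamts12 (0.0956) were lost with 1 array left out, at up to the adjusted p in brackets.

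**Figure D4:**
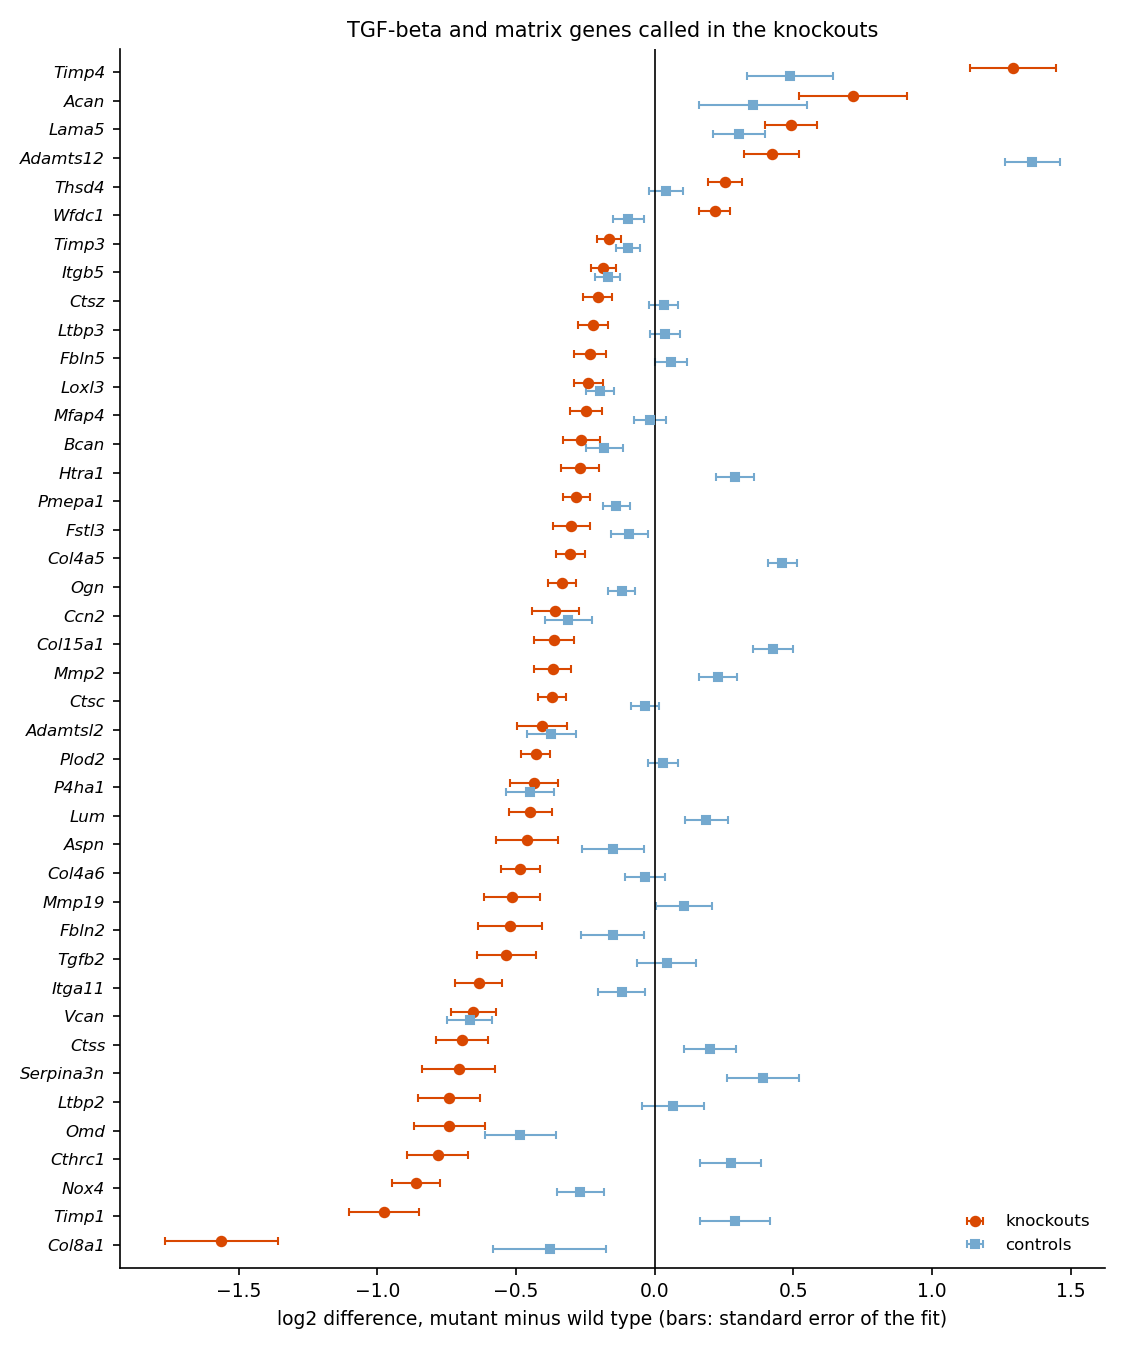
Log2 difference between mutant and wild type of 42 TGF-β and matrix genes that passed in the knockouts, with circles for the knockouts, squares for the controls and bars for the standard error of the fit. Timp4 is highest in the knockouts at 1.29 and Col8a1 lowest at -1.56, and several genes lie on opposite sides of 0 in the 2 comparisons, Col4a5 and Col15a1 among them.

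Contractile genes of smooth muscle showed a mixed pattern, with 3 of 34 higher and 4 lower, beside 2.8% and 3.16% of all genes. The regulators of G protein signalling Rgs4 and Rgs5, which dampen receptor signals, differed by -0.88 and -0.77, beside -0.71 and -0.62 in the controls. Prkg1, the cGMP-dependent kinase that relaxes smooth muscle, rose by 0.34 and Aoc3, an amine oxidase of smooth muscle, by 0.26, while Myocd, myocardin, the coactivator of the contractile program, fell by 0.25. Smtn (0.14, adjusted p = 0.119) and Tpm1 (0.09) did not pass. Among 33 vasoactive receptors and signalling genes 3 rose and 4 fell: beside P2rx1, the angiotensin receptor Agtr1a stood at 8.98, 8.997 and 9.10 in the wild-type knockouts and 9.59, 9.70 and 9.37 in the mutant knockouts, a difference of 0.53 ± 0.08 (adjusted p = 0.00209), and the thromboxane receptor Tbxa2r was 0.40. The prostaglandin F receptor Ptgfr differed by -0.67, Npr3, which clears natriuretic peptides, by -0.43, Pde5a by -0.21 and Ace by -0.28. With the macrophage score as a covariate, 2 of the vasoactive genes rose and none fell, and of the contractile genes 1 fell and none rose. Of 30 ion channels 5 rose and none fell, 16.7% against 2.8% of all genes higher, and 2 rose with the macrophage score as a covariate. Beside Kcnk3 these were the T-type calcium channel Cacna1h (0.44, adjusted p = 0.00159), the potassium channels Kcnh1 (0.33) and Kcna5 (0.32) and Trpm4 (0.24), a cation channel. The potassium channel Kcnj15, among the largest decreases above, is not in this list, so the count does not cover all channels. The calls of Myocd (0.1), Pde5a (0.0906), Ace (0.148), Kcna5 (0.137) and Trpm4 (0.15) were lost with 1 array left out, at up to the adjusted p in brackets.

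Growth factor genes rose in 4 and fell in 2 of 37 cases, 16.2% beside the 5.96% of all genes. Fgf1, acidic fibroblast growth factor, stood at 10.94, 11.01 and 11.06 in the wild-type knockouts and 11.86, 11.69 and 11.83 in the mutant knockouts, a difference of 0.79 ± 0.07 (adjusted p = 0.000117), with no overlap, and its effect differed from that in the controls by 0.68 (adjusted p = 0.00537). Angpt2, an antagonist of the Tie2 receptor, rose by 0.66 and Vegfa by 0.31, while Kitl fell by 0.55. Of 40 Wnt and Notch genes 2 rose and 3 fell, 12.5% of the list. Notch3, the Notch receptor of arterial smooth muscle, stood at 10.63, 10.70 and 10.49 in the wild-type knockouts and 11.39, 11.27 and 11.40 in the mutant knockouts, a difference of 0.75 ± 0.08 (adjusted p = 0.00025) beside 0.56 in the controls. Of 25 cartilage and bone genes 5 fell and 1 rose, 24% of the list. Sox9, the chondrocyte transcription factor, differed by -0.62, Tnfrsf11b, osteoprotegerin, by -0.62 and Frzb, a secreted Wnt antagonist, by -0.73. Among developmental transcription factors 3 of 35 rose and 2, with Meox1 the larger, fell, 14.3% of the list. Runx1, a factor of blood and stromal cells, fell by 0.37 and was 0.25 in the controls, a difference of -0.62 (adjusted p = 0.00743). None of 44 respiratory chain genes passed limma's test, 7 being at an unadjusted p below 0.05, with a median of 0.06. Of 38 immediate early genes 1 rose, Nr4a3 (0.68), and 1 fell, Gadd45b (-0.39). These are 5.26% of the list, beside the 5.96% of all genes. The list's mean log2 deviation was 0.11, 0.31 and -0.14 in the wild-type knockouts and 0.54, -0.09 and 0.29 in the mutant knockouts, which overlap. Of 24 ERK feedback genes Spred2 rose, by 0.35, which makes 4.17% of that list. Of 37 antioxidant and oxidase genes 3 fell: Nox4, Cybb, the phagocyte oxidase (-0.56), and Hmox1, heme oxygenase (-0.36). That is 8.11% of the list, near the 5.96% of all genes. The calls of Vegfa (0.149), Kitl (0.137), Nr4a3 (0.0805), Gadd45b (0.17) and Hmox1 (0.0707) were lost with 1 array left out, at up to the adjusted p in brackets.

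The genotype comparison in the controls, which shares no array with that in the knockouts, called 970 genes (6.49%), 473 higher and 497 lower in the mutants. Without mutant control 2, wild-type control 2, mutant control 1 or wild-type control 3 the count was 349, 479, 532 and 554, and with the control arrays fitted alone 480, so the overlap below rests on a count that moves with single arrays. Of the 890 genes called in the knockouts, 221 were also called in the controls, which is 24.8% of the first list and 22.8% of the second, 203 in the same direction and 18 in opposite directions. Without regard to the threshold, 687 of the 890, or 77.2%, had the same sign in the controls, as did 55.6% of all genes, and the differences of the 14944 genes correlated at r = 0.35 across genes, which are not independent replicates. Bmpr1b, Vcan, Kcnj15, Hsph1, P2rx1, Ptgfr and Gpcpd1 (0.79 and 0.79) were called in both. All 12 arrays share 1 estimate of the spread.

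The difference between the genotype effects in knockouts and controls was tested itself and passed for 221 genes (1.48%), 60 with a higher difference in the knockouts (0.401%) and 161 with a lower one (1.08%). Of the 221, 98 were called in the knockouts and not in the controls, 88 in the controls and not in the knockouts, 24 in both and 11 in neither. The largest negative differences were Ccl8 (-1.85), the mitotic cyclins Ccna2 (-1.53) and Ccnb2 (-1.36), D17H6S56E-5 (-1.40), Timp1 (-1.26), Glp1r (-1.22), the proliferation marker Mki67 (-1.20), Sfrp4 (-1.19), Meox1 (-1.19) and Fcrls (-1.14). The largest positive ones were Rasl10b (0.87), Scarna17 (0.86), Slc2a4 (0.84), Kcnc4 (0.84), Kcnk3 (0.74), Gstm7 (0.70), Asb2 (0.70), Fgf1 (0.68), P2rx6 (0.64) and Rbm24 (0.63). Meox1 stood at 8.18, 8.44 and 8.38 in the wild-type controls and 7.83, 7.93 and 7.88 in the mutant controls, a control difference of -0.46 (adjusted p = 0.00215), so that the wild-type knockouts were above every other array. With the macrophage score as a covariate 42 differences passed, 19 of them among the 221, and without wild-type knockout 1, wild-type knockout 3, mutant control 2, mutant knockout 2 or mutant knockout 1 the count was 107, 109, 118, 128 and 142.

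Cell division genes separated the 2 comparisons. Of 37, 17 rose and none fell in the mutant controls, beside 3.17% of all genes higher there. In the knockouts none rose and 1, a share of 2.7% beside 3.16% of all genes, Anln, an anillin of the cytokinetic ring, fell, with a difference of -0.74 ± 0.08 (adjusted p = 0.000392). Ccna2 was 1.35 in the controls, at 7.76, 7.66 and 7.98 in the wild-type controls and 9.47, 9.09 and 8.89 in the mutant controls, and -0.18 in the knockouts, at 9.57, 9.48 and 9.81 in the wild-type knockouts and 9.78, 9.51 and 9.01 in the mutant knockouts. Mki67 was 1.14 and -0.06. The difference of the effects was called for 9 of the 37, all lower in the knockouts, beside 1.08% of all genes.

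**Figure D5:**
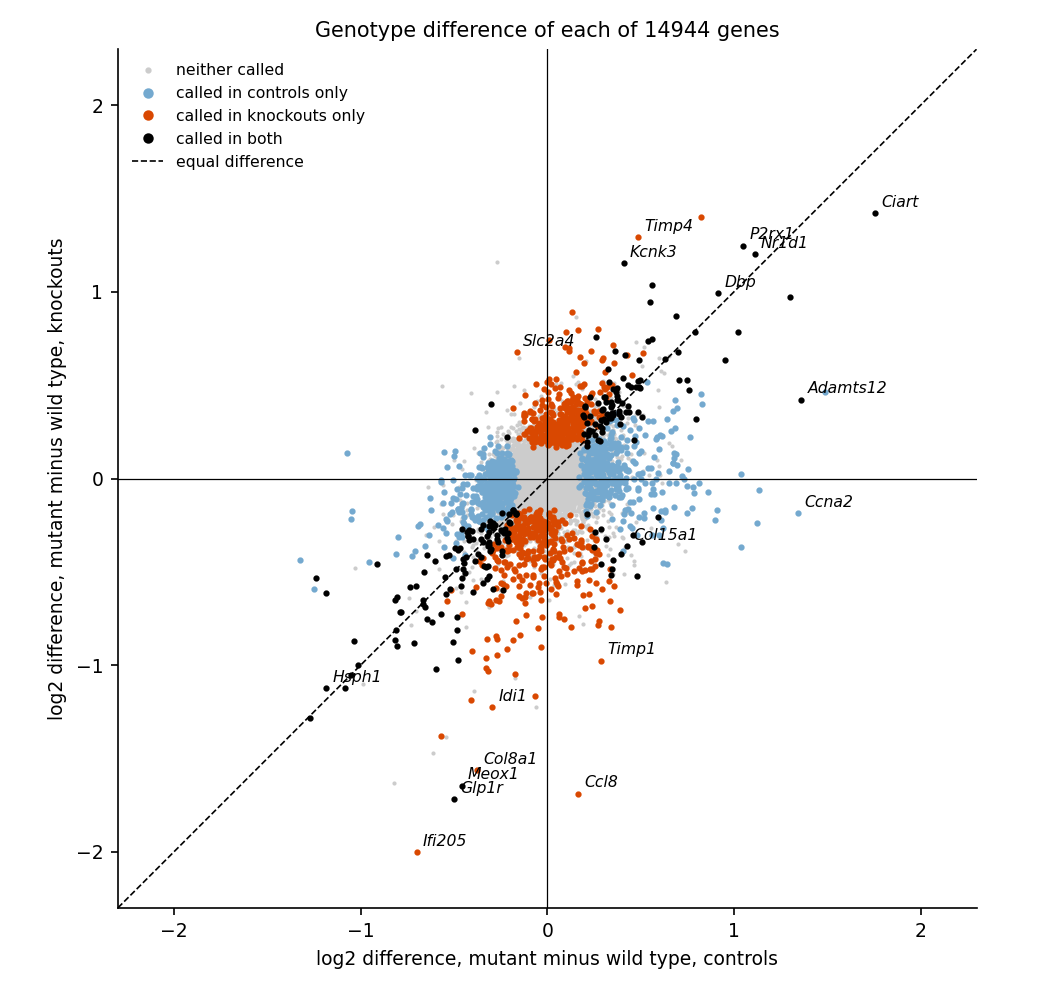
Log2 difference between mutant and wild type in the controls (x) and the knockouts (y) of each of 14944 genes, with genes called in 1 or both comparisons in colour and the dashed line at equal differences. Ccl8, at 0.16 and -1.69, and Ccna2, at 1.35 and -0.18, lie far from that line, and Hsph1, at -1.19 and -1.12, lies close to it.

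Genes near the mutated locus were examined because alleles linked to it can differ between strains. Of the 100 nearest neighbours of Fbn1 on chromosome 2, 50 on each side, 38 were tested and 2 were called in the knockouts, Bloc1s6 (0.23) and Dut (-0.26), and 2 in the controls, Gatm and Ncaph, 5.26% in each. The median size of a neighbour's difference was 0.0733 on the log2 scale, against 0.0721 over all genes. Over the chromosomes, the share of genes called ran from 4.34% on chromosome 8 to 7.95% on chromosome 9 and was 5.14% on chromosome 2. The calls of Bloc1s6 (0.146) and Dut (0.139) were lost in 5 and 7 of the 12 fits with 1 array left out, at up to the adjusted p in brackets.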

How the data were processed

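Ascending aortas of mice were profiled on 12 1-colour Affymetrix whole-transcript arrays, 4 groups of 3. Per the submitters' processing notes, signals were normalised with RMA in Partek 6.4, and the deposited values are linear intensity per probe set. The log2 of each deposited intensity was taken here. Of 35556 probe sets, 23410 had a gene annotation, 21789 with 1 symbol, 1621 with several, while 12146 had none. Where a gene had several probe sets, as 918 of 19938 did, the one with the highest mean stood for it. Genes below the 25th percentile of mean level (log2 7.31, intensity 159) were left out, which left 14944.

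Groups came from the array titles. limma 3.58.1 in R 4.3.3 fitted 1 coefficient per group over all 12 arrays, with empirical Bayes moderation (8 residual and 4.54 prior degrees of freedom), with Benjamini-Hochberg adjustment across the 14944 genes and a threshold of 0.05. The contrasts were mutant against wild type in knockouts, in controls, and their difference. The scripts were tested on simulated data. The number of arrays limits the precision.

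Named were the 15 largest increases and decreases that passed without overlap of the groups, leaving out predicted genes, chemosensory receptors and small RNAs of 2 name classes (28 called genes), the 10 largest differences of the effects in each direction, members of 40 gene lists (1087 of 1306 entries tested), called neighbours of Fbn1, and Tgfbr2. The members and lists were chosen with earlier results of these data known. Lists are described by counts and medians, without a test of the list. The alternatives were other filters, scalings, variance models, covariates, a replicate block and leaving out each array.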

Additional observations from a re-analysis of the deposited data

Results flagged for a closer look

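The results below are genes whose genotype difference in the knockouts differed from that in the controls by limma's test of the difference itself, at an adjusted p below 0.05 over all 14944 genes. They are 54 of the 221 such genes: those named by the rules above, and list members also called in the knockouts. List members called for the difference but not in the knockouts are left out, among them Eln, Col5a2, Col3a1, Col1a1 and Tnc. Values are the knockout difference minus the control difference on the log2 scale, with 3 arrays in each of the 4 groups.

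The macrophage, cytokine and complement lists had 10 of 33, 2 of 26 and 3 of 20 members called lower, beside 1.08% of all genes. The 13 members examined singly were Adgre1 (-0.86), C4b (-0.72), Ccl2 (-0.80), Ccl8 (-1.85), Cfb (-0.62), Csf1r (-0.66), Fcgr2b (-0.79), Fcgr3 (-0.75), Fcrls (-1.14), Itgam (-0.56), Laptm5 (-0.58), Ptprc (-0.82) and Trem2 (-0.47). The macrophage marker sum was lower in the mutant than in the wild-type knockouts and overlapped between the control groups. With the macrophage score as a covariate, these 13 differences ran from -1.34 to -0.203 and none passed, while over all genes 42 passed, of which 19 were among the 221 without it. The macrophage markers among the 13 are part of that score, so for them the fit adjusts a gene partly for itself. Cell division genes among the 54 were Anln (-0.71), Ccna2 (-1.53), Ccnb2 (-1.36), Mki67 (-1.20) and Ncaph (-0.46), while 9 of the 37 tested in that list were called. Matrix genes and their processing enzymes, receptors and inhibitors were Adamts12 (-0.94), Col15a1 (-0.79), Col4a5 (-0.76), Cthrc1 (-1.06), Ctsc (-0.34), Ctss (-0.90), Fap (-0.63), Htra1 (-0.56), Ltbp2 (-0.81), Lum (-0.63), Mmp2 (-0.60), Plod2 (-0.46), Serpina3n (-1.10), Sfrp4 (-1.19), Timp1 (-1.26) and Tnfrsf11b (-0.85). The other negative differences among the 54 were Cybb (-0.82), D17H6S56E-5 (-1.40), Glp1r (-1.22), Meox1 (-1.19), Msmo1 (-0.68), Nox4 (-0.59), Nupr1 (-0.62), Runx1 (-0.62) and Trim67 (-0.42).

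Positive differences, with the mutant relatively higher in the knockouts, were found for Asb2 (0.70), Fgf1 (0.68), Gstm7 (0.70), Id4 (0.61), Kcnc4 (0.84), Kcnk3 (0.74), P2rx6 (0.64), Rasl10b (0.87), Rbm24 (0.63), Scarna17 (0.86) and Slc2a4 (0.84). Kcnk3 was higher in mutants of both comparisons and more so in the knockouts, while Col4a5 and Col15a1 were called in opposite directions in the 2 comparisons.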

How the results depend on the processing

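Among 192 named genes called in the knockouts, 34 kept their call in all 25 alternative settings and 108 in all 12 fits with 1 array left out. The macrophage score as a covariate, chosen after seeing the data, gave 145 genes in the knockouts, 1103 in the controls and 42 for the difference of the effects, and under it C1qa turned from a fall to 0.0062 (adjusted p = 0.981), the only change of sign among these 192 genes. C1qa is itself a member of that score. Array weights gave 1687, 1568 and 469 genes, and 0.18 for Tgfbr2, which then passed. The controls fitted on their own arrays alone gave 480. Leaving out 1 array gave 382 to 1019 genes in the knockouts, 349 to 1073 in the controls and 107 to 202 for the difference, with the lowest count in the controls without mutant control 2, and 0.12 to 0.20 for Tgfbr2, without a call. The counts with the other filters, scalings, variance models and the remaining covariates lay within 1.5-fold of those reported, 721 to 1080 in the knockouts. Over all settings the median difference of all genes stayed near 0, at -0.01 with quantile normalization and -0.02 with each array centred on its median.

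Same-numbered arrays of the 2 knockout groups did not deviate together, with correlations of -0.05, -0.16 and -0.21 for numbers 1 to 3, so the numbers were not taken to pair them. With the number as a replicate block, 841, 867 and 199 genes passed, and Tgfbr2 stayed at 0.16 (adjusted p = 0.0873). With the filter at the median no erythroid gene was left to test. The deposited values hold no spread within a probe set, so a level near the filter cannot be set against its background.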
